A study of Mus musculus with 18 samples.

Results

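Small RNA of sperm was compared between F1 males of a line founded by gas-exposed males (labelled F1 NHS) and F1 males of the control line (labelled F1 Con). The comparison holds 3 libraries of each group, chosen by these labels, which makes 6 of the 18 libraries in the series. All mice were ICR, an outbred strain. Treatment with ammonia (NH3) and hydrogen sulphide (H2S) was given to the F0 males of the exposed line, beginning at 3 weeks of age and lasting 5 weeks. These males sired the F1 generation with normal ICR females. F1 sons received neither gas and were bred when 8 weeks old, so F1 NHS and F1 Con males differ in the exposure of their fathers and not in a treatment of their own. No dose is stated in the labels, nor a step that separates sperm from the other cells of semen. The libraries are called Con 1 to Con 3 and NHS 1 to NHS 3 below. Nothing in the labels says that the 3 libraries of a group came from separate animals, so a p-value here reflects only how far these libraries spread, and that spread may be technical. In such bulk samples, fewer cells of a type and less RNA per cell cannot be told apart.

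Mature sperm carry almost no translation, and their RNA is rich in short fragments. PIWI-interacting RNAs (piRNAs) guide PIWI proteins to transposon transcripts in male germ cells, usually begin with uridine (T in the sequences below) and are longer than microRNAs (miRNAs). miRNAs are cut from hairpins and pair with target transcripts through their seed, and fragments of transfer RNA (tRNA) and ribosomal RNA (rRNA) are abundant in sperm. The mature tRNA ends in CCA, which is added after transcription.

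The deposited lists give each small RNA of a library with its read count and its per-million share of that library's reads, in a column headed TPM and not scaled to length. Library totals were 25586200, 23535800 and 25484600 reads in Con 1 to Con 3, and 17224400, 28970900 and 26986100 in NHS 1 to NHS 3. The 3 F1 NHS lists stop at line 96730 of the table, and the listed part holds 2.17%, 42.3% and 1.74% of the reads of NHS 1, NHS 2 and NHS 3. Predicted miRNA hairpins are complete in all 6 libraries, and so are predicted piRNAs up to the number at which the shortest list stops. Both were compared at 3 against 3. The piRNA numbers used cover chromosomes 10 to 19 and 1 to 3 and the beginning of chromosome 4. Known miRNAs are complete in NHS 2 alone and are described for that library against the range of the 3 F1 Con libraries. NHS 1 stands apart in length: it lists 33628 predicted piRNAs under 18 bases, and the other 17 libraries of the series list 0. NHS 2 stands apart in the tRNA hairpin novel_mir1 and in the 5′ ends of its reads, and values that rest on either library are marked.

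The sequences shown first are the predicted piRNAs and hairpins on which the comparisons turn. The 3 nested predicted piRNAs below were assigned by the deposited annotation to ERVK, a family of endogenous retroviruses, on chromosome 11. novel_pir257859 and novel_pir257871 were lower in F1 NHS. novel_pir257856 overlapped, at 0.16, 0.17 and 0.04 TPM in F1 Con and at 0.12, 41.4 and 0.07 TPM in F1 NHS. Capitals mark the run of 17 bases they share.
novel_pir257859: cAGGTCCCTGTTCGGGCGcc
novel_pir257871: cAGGTCCCTGTTCGGGCG
novel_pir257856: AGGTCCCTGTTCGGGCGcc

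A second set listed as ERVK, on chromosome 1, shares the 20 bases in capitals and differs in its first and last bases.
novel_pir531231: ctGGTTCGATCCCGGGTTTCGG
novel_pir531220: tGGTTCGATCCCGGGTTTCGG
novel_pir531216: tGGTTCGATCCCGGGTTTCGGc
novel_pir531227: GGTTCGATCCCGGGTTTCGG

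A set on chromosome 19 was higher in F1 NHS. The deposited annotation lists it as L1, a family of long interspersed elements. Whether these sequences match rRNA or tRNA was not tested. Capitals mark the 20 bases they share.
novel_pir492917: gGGAAAGAAGACCCTGTTGAG
novel_pir492922: gGGAAAGAAGACCCTGTTGAGc
novel_pir492928: GGAAAGAAGACCCTGTTGAGctt

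The 2 predicted piRNAs with the most reads end in CCA, in capitals, and differ only by T15C, with positions counted from 1 at the 5′ end. Both are listed as ERV1, another retroviral family.
novel_pir83653: cgtttcccggccaatgcaCCA
novel_pir249668: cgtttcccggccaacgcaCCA

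The pair listed as ERVL on chromosome 3 differs by its first base alone and shows the 5′ end of NHS 2.
novel_pir575602: gTCAGGATGGCCGAGTGGTC
novel_pir575604: TCAGGATGGCCGAGTGGTC

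For the predicted hairpins, the deposited mature sequences are shown with bases 2 to 8, the place of a miRNA seed, in capitals. The first lies in a 5S rRNA gene, the second in an alanine tRNA gene, the third in a small nuclear RNA gene and the last in the coding sequence of Rpl35, a protein of the large ribosomal subunit.
novel_mir6543: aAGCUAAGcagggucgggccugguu
novel_mir1: gGGAUGUAgcucagugguagagc
novel_mir2631: aGCUUUGCgcaguggcagu
novel_mir16: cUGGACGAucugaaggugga

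The first question was whether sperm of the exposed line carried more or other predicted piRNAs. All 3 F1 NHS libraries listed more different predicted piRNAs than any F1 Con library. Con 1, Con 2 and Con 3 listed 41435, 31961 and 40019 sequences of 18 bases or more, and NHS 1, NHS 2 and NHS 3 listed 59309, 58962 and 75139. The groups did not overlap, and the mean in F1 NHS was 1.71 times that in F1 Con. With 3 libraries against 3 the exact permutation test (both directions counted) cannot go below p = 0.1, the value it gave here. Over the 54 shares and numbers tested in this way, 13 had no overlap between the groups, and the smallest adjusted p was 0.415.

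**Figure D1:**
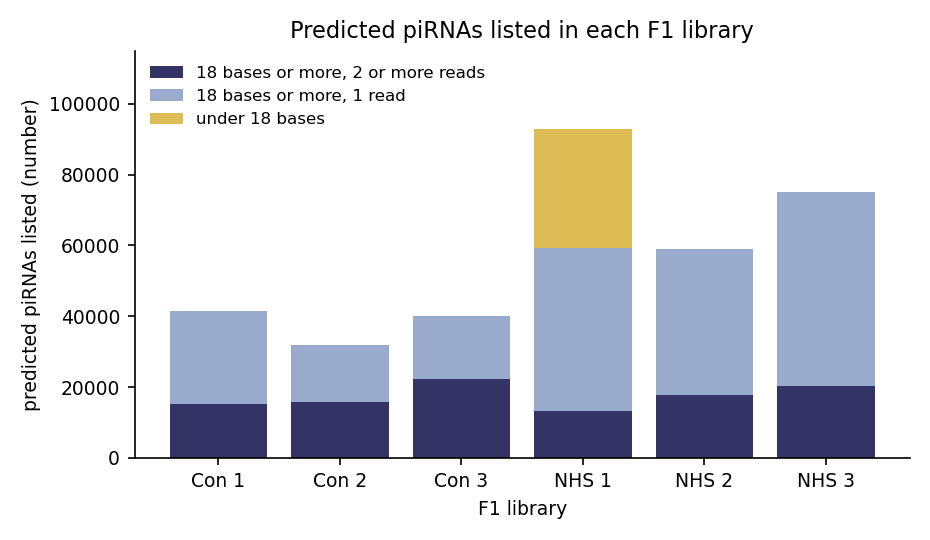
Number of predicted piRNAs (vertical axis) in each of the 6 F1 libraries (horizontal axis), split by length and by 1 read against 2 or more. The dark bars of 2 or more reads overlap between the groups, the light bars of 1 read are taller in all 3 F1 NHS libraries, and only NHS 1 has a bar under 18 bases.

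The higher number came from sequences with 1 read. Sequences with 2 or more reads numbered 15131, 15765 and 22357 in F1 Con and 13243, 17847 and 20152 in F1 NHS, a ratio of 0.962 (exact permutation p = 0.9). Sequences with 1 read made up 63.5%, 50.7% and 44.1% of those listed in F1 Con and 77.7%, 69.7% and 73.2% in F1 NHS, without overlap. Of the sequences listed, 48.4%, 45.3% and 48.4% in F1 Con and 55.8%, 65.7% and 60.8% in F1 NHS were found in no other library of the series. In the F0 and F2 libraries of both lines that share was 51.1% to 71.6%, so F1 NHS lay within that range and F1 Con below it. At equal library totals of 17224467 reads, the expected numbers were 30700 ± 3198 in F1 Con and 51050 ± 9715 in F1 NHS (SD, n = 3 each), and the libraries did not overlap. At equal reads of predicted piRNAs the ratio was 1.40 and the libraries overlapped (exact permutation p = 0.2).

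Few predicted piRNAs were shared. Of 245425 sequences listed in any of the 6 libraries, 210485 (85.8%) were in 1 library and 1327 in all 6. There were 377 sequences in all 3 F1 NHS libraries and in no F1 Con library, and 322 the other way round. The highest mean among the 377 was that of novel_pir18014, listed as ERVK, at 3.797 TPM, and it came almost entirely from NHS 2 (0.06, 11.2 and 0.15 TPM in NHS 1 to NHS 3).

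**Figure D2:**
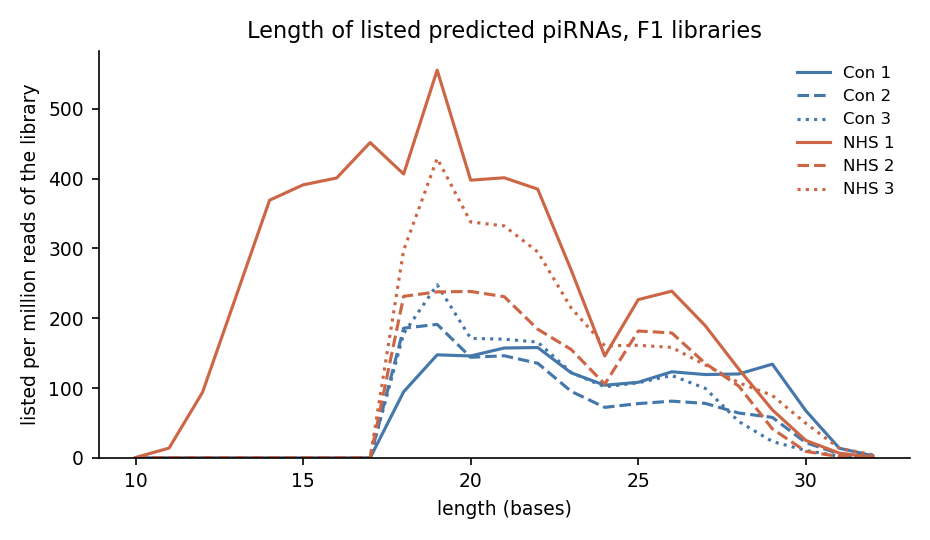
Number of predicted piRNAs listed, scaled to the library total (vertical axis) at each length in bases (horizontal axis), with 1 line for each F1 library. The line of NHS 1 begins below 18 bases, and the 3 F1 NHS lines lie above the F1 Con lines at 20 to 27 bases.

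The repeat families of the listed sequences differed between the F1 groups by small amounts. L1 made up 28.4%, 28.6% and 28.7% in F1 Con and 31.1%, 29.4% and 33.1% in F1 NHS, so every F1 NHS library was above every F1 Con library. The difference of 2.65 percentage points was 1.69 without NHS 3 and 3.55 without NHS 2. In the F0 and F2 libraries of both lines L1 made up 29.9% to 33.5%, so the F1 Con shares were the lowest of the series. ERVL made up 10.7%, 10.9% and 11.1% in F1 Con and 9.26%, 9.04% and 9.26% in F1 NHS, with every F1 NHS library lower. In the F0 and F2 libraries of both lines ERVL made up 8.13% to 10.4%, so the F1 Con shares were the highest of the series. By reads the groups overlapped in both families. The L1 share of predicted piRNA reads was 23.2%, 29.7% and 24.8% in F1 Con and 28.9%, 17.7% and 30.2% in F1 NHS. The ERVL share was 11.2%, 13.8% and 13.8% in F1 Con and 10.5%, 4.30% and 13.1% in F1 NHS, with a lower F1 NHS mean as in the listed sequences (exact permutation p = 0.2). Sequences of canonical piRNA form, taken as 26 to 32 bases with T first, were 22.9%, 13.5% and 12.9% of those listed in F1 Con and 12.04%, 6.09% and 11.1% in F1 NHS. Their number did not follow their share, with means of 6321 ± 2761 in F1 Con and 6352 ± 2465 in F1 NHS (SD, n = 3 each). Without Con 1, the difference in the canonical share was -3.49 percentage points, against -6.70 with all libraries. The low value of 6.09% was that of NHS 2, whose 5′ ends differ. Sequences of 26 to 32 bases were 35.9%, 22.8% and 19.5% of those listed in F1 Con and 23.1% in NHS 2. T came first in 63.7%, 59.3% and 66.2% of them in F1 Con and in 26.4% in NHS 2.

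As a share of all reads, predicted piRNAs of 18 bases or more were 0.571%, 0.688% and 0.677% in F1 Con and 0.816%, 0.904% and 0.834% in F1 NHS, without overlap (exact permutation p = 0.1). With the shorter sequences of NHS 1 its share was 1.46%. Over all lengths the means differed by 0.420 percentage points (exact permutation p = 0.1), which went to 0.296 without the 5 most abundant entries (exact permutation p = 0.3) and to 0.112 over the entries kept by the filter (exact permutation p = 0.2). Sequences that end in CCA took 11.8%, 6.90% and 4.49% of predicted piRNA reads in F1 Con, and 7.52%, 37.9% and 4.75% in F1 NHS. The high value was that of NHS 2 alone. In that library novel_pir83653 reached 2501 TPM, against 104, 36.2 and 17.7 in F1 Con and 80.8 and 42.9 in NHS 1 and NHS 3. Its 1-base variant novel_pir249668 reached 620 TPM in NHS 2, against 100, 92.96 and 50.3 in F1 Con and 74.5 and 76.1 in the other F1 NHS libraries.

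The next comparison asked which single predicted piRNAs differed. Of 937 that passed the filter of at least 1 TPM in at least 3 of the 18 libraries, edgeR called 0 (0%) at an adjusted p under 0.05, with 63 (6.72%) at an unadjusted p under 0.05. Of these 63, 55 (5.87%) were higher and 8 (0.854%) lower in F1 NHS. DESeq2 called 11 (1.17%). F1 NHS lay above F1 Con without overlap for 61 (6.51%) and below for 45 (4.80%). The median log2 fold change over the 937 was -0.02 with TMM scaling and 0.20 with library totals alone.

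Of the nested sequences listed as ERVK on chromosome 11 and shown above, 2 were lower in F1 NHS, and both were called by DESeq2 but not by edgeR. novel_pir257859 stood at 200, 180 and 105 TPM in F1 Con and at 2.38, 1.76 and 12.2 TPM in F1 NHS. All 3 F1 NHS libraries were below all 3 F1 Con libraries. Its log2 fold change was -5.21 (SE 1.80), with an adjusted p of 0.675 in edgeR and 0.00883 in DESeq2. The shorter novel_pir257871 stood at 93.8, 56.5 and 16.2 TPM in F1 Con and at 0.99, 0.59 and 1.89 TPM in F1 NHS, again without overlap (log2 fold change -5.86, SE 2.02, adjusted p 0.675 in edgeR and 0.00993 in DESeq2). Read on the opposite strand, both sequences match transcripts of Gm19792, Gm43078 and the olfactory receptor gene Olfr1388, and on their own strand no annotated transcript. As background, ERVK elements carry a site complementary to the 3′ end of a lysine tRNA. Neither tRNA nor rRNA sequences were searched here, so a match of these or of the other predicted piRNAs to them was not tested.

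In the set listed as ERVK on chromosome 1, novel_pir531220 stood at 12.7, 28.4 and 13.6 TPM in F1 Con and at 0.99, 1.73 and 1.33 TPM in F1 NHS. The 1-base longer novel_pir531231 stood at 5.16, 9.64 and 0.55 TPM in F1 Con and at 0.17, 0.07 and 0.11 TPM in F1 NHS. Both were lower in all 3 F1 NHS libraries, and neither was called (adjusted p 0.675 in edgeR for both, 0.102 in DESeq2 for both). The level of novel_pir531220 summed with its form without the first base is given below, where NHS 2 was closer to F1 Con.

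Among sequences higher in F1 NHS, novel_pir492917 of the set listed as L1 stood at 0.27, 0.38 and 1.14 TPM in F1 Con and at 3.37, 11.6 and 6.596 TPM in F1 NHS. novel_pir558471, listed as ERVL-MaLR (a family of non-autonomous retroviral repeats) on chromosome 2, stood at 0.313, 0.085 and 0.078 TPM in F1 Con and at 1.05, 1.38 and 3.37 TPM in F1 NHS. For both, the 3 F1 NHS libraries were above the 3 F1 Con libraries, and the adjusted p was 0.675 in edgeR. novel_pir549344, listed as ERVK on chromosome 2 and found in transcripts of Tgfb1 and Gm48617, had 0 reads in the 3 F1 Con libraries and 0.12, 1.38 and 0.78 TPM in F1 NHS. Its mean was at least 6.28-fold higher than a floor of 3 reads in each F1 Con library, with an adjusted p of 0.675 in edgeR and 0.0195 in DESeq2.

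The other 8 sequences called by DESeq2 rested on 1 library. They were novel_pir192758, novel_pir233730, novel_pir250123, novel_pir274979, novel_pir306653, novel_pir382244, novel_pir435950 and novel_pir461093, each with 0 reads in F1 Con and 0 in NHS 3. Their level in NHS 2 ran from 1.79 to 8.04 TPM, and NHS 1 had at most 0.06 TPM. novel_pir134079, listed as ERVL-MaLR, showed the other split, with 3.43, 0 and 36.8 TPM in NHS 1 to NHS 3 against 0.17 to 0.27 TPM in F1 Con. Other abundant sequences were low in NHS 2 instead. novel_pir359883, at 42.5, 50.1 and 27.4 TPM in F1 Con, was at 142.3, 1.83 and 248 TPM in F1 NHS. novel_pir575602 was at 77.7, 194.4 and 155.2 TPM in F1 Con and at 61.8, 0.03 and 168 TPM in F1 NHS.

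By listed family, 26 of the 275 tested L1 sequences were above and 6 below F1 Con without overlap, beside 61 and 45 of all 937. ERVL went the other way: 1 of 56 was above and 6 were below. A negative log2 fold change was found for 42 of the 56, beside 472 of all 937, and the ERVL median was -0.67. ERVK was even, with 16 of 275 above and 18 below and a median log2 fold change of 0.00. Of the 49 sequences that end in CCA, 0 were above and 3 below. Entries that overlap in sequence count separately in these numbers. The set joined with novel_pir492917, listed as L1 and described below, held 15 entries above F1 Con without overlap and 0 below.

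Predicted piRNAs overlap one another in sequence, so single entries are not independent. Joining entries that share a run of 14 bases turned the 937 into 242 groups, of which 138 held 1 entry and the largest held 86. Entries were joined in chains, so not all entries of a group share a run of that length. The longest run common to all entries was 15 bases in the group of novel_pir257859, 4 in that of novel_pir531220 and 7 in that of novel_pir492917. Over these groups edgeR called 0 (0%), 6 (2.48%) had an unadjusted p under 0.05, and DESeq2 called 1 (0.413%), the single entry novel_pir382244. The ERVK-listed group of novel_pir257859 held 7 entries, whose summed level was 411, 258.5 and 144.4 TPM in F1 Con and 9.29, 76.1 and 24.6 TPM in F1 NHS. Its log2 fold change was -2.94 (SE 1.498, adjusted p 0.842 in edgeR), smaller than that of its leading entry alone. The 25 entries joined with novel_pir531220 summed to 54.8, 71.9 and 43.4 TPM in F1 Con and 19.7, 41.2 and 19.97 TPM in F1 NHS (log2 fold change -1.26, SE 0.89, adjusted p 0.842 in edgeR). Both groups were lower in F1 NHS without overlap. These groups and those below were chosen through their leading entries, and groups without overlap were not counted over all 242. Other groups separated too, such as those of novel_pir27809 and novel_pir435753 below F1 Con and of novel_pir333342 and novel_pir347088 above it.

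The L1-listed group of novel_pir492917 was higher in F1 NHS with little spread within either group. Its 39 entries summed to 61.6, 44.8 and 47.3 TPM in F1 Con and to 184, 207.8 and 215 TPM in F1 NHS. F1 NHS was higher in all 3 libraries, NHS 2 included, and the means of 51.2 and 202 TPM were farther apart than the SD within either group (9.06 TPM in F1 Con, 15.8 TPM in F1 NHS). Of its entries, 35 had a positive and 4 a negative log2 fold change, beside 464 and 472 of all 937. Above F1 Con without overlap lay 15 of its entries, as did 61 of all 937 (6.51%). The entries of the group overlap in sequence and are not independent of each other. The log2 fold change of the sum was 1.60 (SE 0.93, adjusted p 0.842 in edgeR), where the spread is shared with all groups and libraries. The 26 entries joined with novel_pir558471 summed to 28.9, 17.1 and 42.2 TPM in F1 Con and to 26.1, 46.5 and 116 TPM in F1 NHS, which overlap. The 26 entries joined with novel_pir83653 summed to 553, 468 and 212 TPM in F1 Con and to 523, 3730 and 330 TPM in F1 NHS, with NHS 2 alone above the F1 Con range. With a term for the libraries high in novel_mir1, the log2 fold change of novel_pir83653 went from 4.54 to 0.04. Among F1 libraries that set holds NHS 2 alone, so within F1 the term cannot be told apart from NHS 2 itself, and the cause was not tested.

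**Figure D3:**
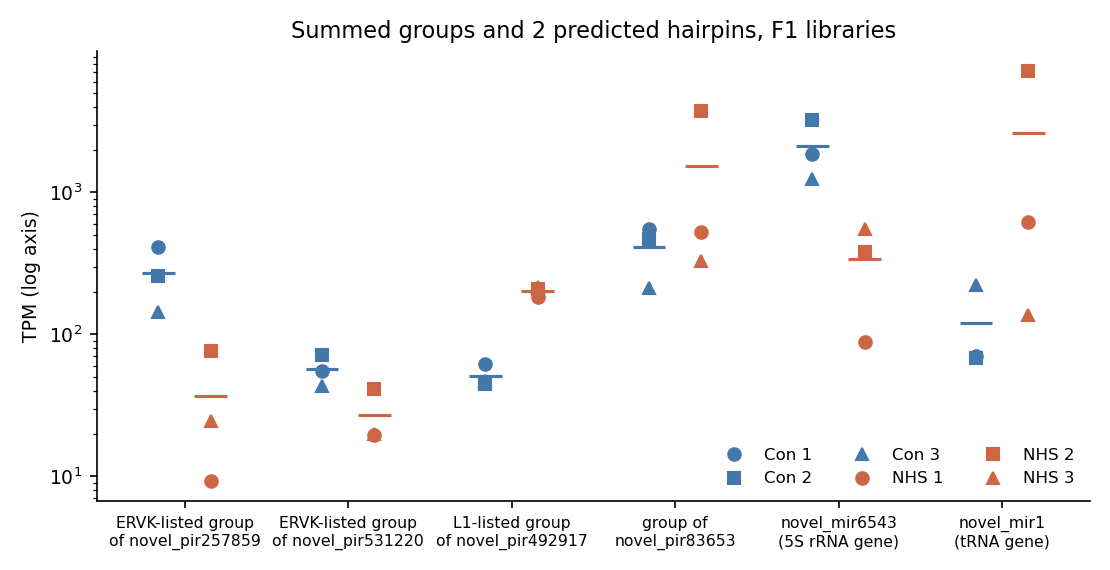
Level in TPM on a log axis (vertical) of 4 summed groups of predicted piRNAs and 2 predicted hairpins (horizontal), with 1 point for each F1 library and a short line at each group mean. The groups of novel_pir257859 and novel_pir531220 and the hairpin novel_mir6543 are lower and the group of novel_pir492917 is higher in F1 NHS without overlap, while for novel_pir83653 and novel_mir1 NHS 2 lies far above the rest.

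NHS 2 differed from the other F1 libraries in where its reads begin. The sequence novel_pir257856, which is novel_pir257859 without its first base, made up 0.0779%, 0.0943% and 0.0374% of the reads of the pair in F1 Con, 4.65% in NHS 1, 95.9% in NHS 2 and 0.602% in NHS 3. Summed over both forms, the pair stood at 200.6, 180 and 105 TPM in F1 Con and at 2.496, 43.1 and 12.3 TPM in F1 NHS. The decrease in NHS 2 was therefore smaller for the pair than for novel_pir257859, and F1 NHS still lay below F1 Con. In the pair of novel_pir531220 and novel_pir531227, the form without the first base held 1.42% to 4.40% of reads in F1 Con, 19.05% in NHS 1, 84.3% in NHS 2 and 18.2% in NHS 3. Summed, that pair was at 13.3, 28.8 and 13.8 TPM in F1 Con and at 1.22, 11.0 and 1.63 TPM in F1 NHS. novel_pir531216 with novel_pir531215, its form without the first base, summed to 11.7, 18.2 and 16.7 TPM in F1 Con. In F1 NHS that sum was 0.464, 13.8 and 1.52 TPM, so NHS 2 was within the F1 Con range. For novel_pir575602 and novel_pir575604 the form without the first base held at most 0.759% in F1 Con, 2.47% in NHS 1, 99.9% in NHS 2 and 0.506% in NHS 3. Summed, this last pair was at 77.7, 195.9 and 155.6 TPM in F1 Con and at 63.3, 46.3 and 168 TPM in F1 NHS. The sum in NHS 2 was almost all of the shorter form and lay below every F1 Con library.

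The shift was seen across predicted piRNAs. In pairs of sequences that differ by the first base, with 10 or more reads in the pair, the median share of reads in the form without that base was 50%, 61.5% and 52.3% in F1 Con and 56.2%, 73.3% and 55.6% in F1 NHS. For pairs that differ by the last base the medians were 52.3%, 61.5% and 58.3% in F1 Con and 55.6%, 50% and 53.1% in F1 NHS, so NHS 2 was not high at the 3′ end. T was the first base of 63.7%, 59.3% and 66.2% of sequences of 26 to 32 bases in F1 Con, and of 63.2%, 26.4% and 55.5% in F1 NHS. NHS 2 is 1 of 6 libraries of the series with at least 2378 TPM of novel_mir1, and the other 12 have at most 621 TPM. In those 6 libraries T came first in 25.05% to 30.7%, and in the other 12 in 50.99% to 66.2%. The median share without the first base was 64.2% to 76.8% in the 6 and 41.5% to 64.0% in the 12. The 6 come from all 3 generations and from both lines, and hold no F1 Con library, so a contrast of NHS 2 with F1 Con also contrasts these 5′ ends.

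**Figure D4:**
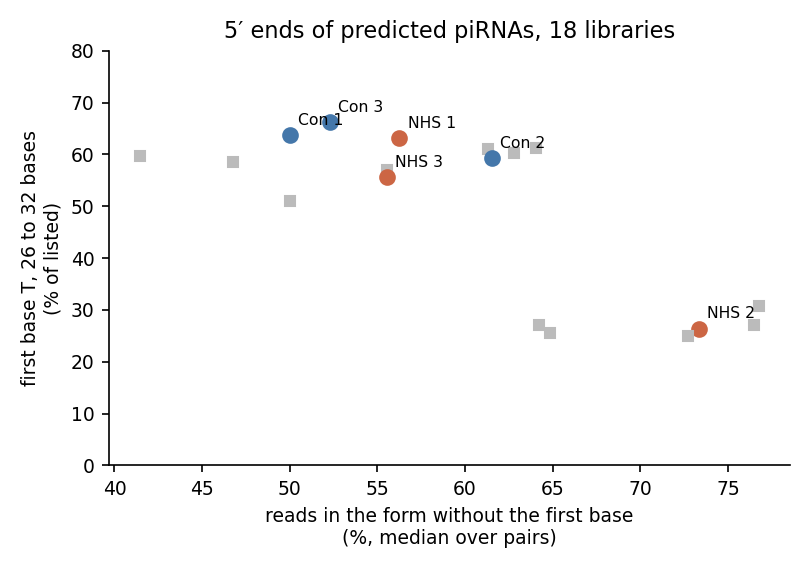
Share of listed predicted piRNAs of 26 to 32 bases that begin with T in percent (vertical axis) against the median share of reads in the form without the first base in percent (horizontal axis), with 1 point for each of the 18 libraries and grey squares for those of F0 and F2. NHS 2 lies with 5 other libraries at the lower right, at 26.4% and 73.3%.

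Predicted miRNA hairpins showed 1 class that was lower in F1 NHS than in F1 Con. Hairpins inside annotated genes of small RNAs other than tRNAs and miRNAs (rRNA, small nuclear and small nucleolar RNA) summed to 2892, 3754 and 1599 TPM in F1 Con and to 499.1, 674 and 1256 TPM in F1 NHS. Every F1 NHS library was lower (exact permutation p = 0.1, adjusted p = 0.415). Most of this came from novel_mir6543 in the 5S rRNA gene n-R5s90, which encodes an RNA of the large ribosomal subunit and lies within Stac. Its precursor lies at chromosome 9, 111613945 to 111614014, minus strand (GRCm38). novel_mir6543 stood at 1858, 3252 and 1240 TPM in F1 Con and at 88.7, 380 and 548 TPM in F1 NHS, with a log2 fold change of -2.18 (SE 1.08, adjusted p 0.506 in edgeR and 0.200 in DESeq2). The second rRNA hairpin, novel_mir5152 in CT010467.1, overlapped between the groups, at 955, 432 and 279 TPM in F1 Con and at 300, 123 and 400 TPM in F1 NHS.

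The class did not move as a whole. Of its 19 tested hairpins, 5 were above and 2 below F1 Con without overlap, beside 24 and 12 of all 299 tested. novel_mir2631, in the small nuclear RNA gene Gm22122 on chromosome 6, stood at 10.7, 20.6 and 28.0 TPM in F1 Con and at 37.6, 56.7 and 64.4 TPM in F1 NHS (log2 fold change 1.76, SE 0.75, adjusted p 0.506 in edgeR). novel_mir2876, inside Rpl7a and the small nucleolar RNA gene Gm24134, stood at 2.23, 2.25 and 6.91 TPM in F1 Con and at 15.7, 13.7 and 19.3 TPM in F1 NHS (log2 fold change 2.20, SE 1.06, adjusted p 0.506 in edgeR). Both were chosen after their values were seen. Small nucleolar RNAs guide the chemical modification of rRNA.

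Over the 299 tested hairpins, edgeR called 0 (0%), 26 (8.70%) had an unadjusted p under 0.05, of which 18 (6.02%) were higher and 8 (2.68%) lower, and DESeq2 called 3 (1%). F1 NHS lay above F1 Con without overlap for 24 (8.03%) and below for 12 (4.01%). The median log2 fold change was 0.26 with TMM scaling and 0.03 with RLE size factors, with which 11 of the 23 at an unadjusted p under 0.05 were higher and 12 lower.

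The 3 hairpins called by DESeq2 were novel_mir10, novel_mir13 and novel_mir5356. novel_mir10, in the small nucleolar RNA gene Snord45b within Rabggtb, stood at 0.12, 1.27 and 1.84 TPM in F1 Con and at 3.25, 4.56 and 51.9 TPM in F1 NHS (adjusted p 0.403 in edgeR and 0.044 in DESeq2). novel_mir13, in an untranslated region of Tapbp, which helps load peptides onto class I histocompatibility molecules, stood at 1.60, 2.80 and 6.83 TPM in F1 Con and at 0.81, 0.41 and 0.37 TPM in F1 NHS (adjusted p 0.342 in edgeR and 0.035 in DESeq2). novel_mir5356, in an intron of Synpo, had 0 reads in F1 Con and 1.86, 0.17 and 7.23 TPM in F1 NHS, a mean at least 25.5-fold higher than a floor of 3 reads in each F1 Con library (adjusted p 0.221 in edgeR and 0.00426 in DESeq2). In none of the 3 did the groups overlap.

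The smallest unadjusted p was that of novel_mir16 in Rpl35, at 0.08, 0.21 and 0.16 TPM in F1 Con and at 0.93, 1.59 and 0.52 TPM in F1 NHS (log2 fold change 3.27, SE 0.88, adjusted p 0.221 in edgeR, and 1.52 without NHS 2). Lower without overlap were novel_mir6859 in the histocompatibility gene H2-Q1, the intergenic novel_mir2069 and novel_mir120 in an intron of Rbbp6. novel_mir2069 was the most abundant of these, at 23.2, 13.0 and 14.3 TPM in F1 Con and at 8.36, 0.41 and 1.56 TPM in F1 NHS. The intergenic novel_mir6659 was higher without overlap. novel_mir668 in Cav1 and novel_mir2218 in Rpl7-ps7 were high in 1 F1 Con library each, at 10.5 TPM in Con 2 and at 9.65 TPM in Con 3, and overlapped.

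None of the 5 tested hairpins in tRNA genes separated the groups. novel_mir1, in the alanine tRNA gene n-TAcgc10 on chromosome 13 and at 3 loci in all, stood at 70.8, 67.9 and 223.5 TPM in F1 Con and at 621, 7124 and 137 TPM in F1 NHS, so NHS 1 and NHS 2 were high and NHS 3 was within the F1 Con range (log2 fold change 5.28, SE 2.52, adjusted p 0.506 in edgeR, and 0.51 on the log2 scale without NHS 2). novel_mir6624, in the tryptophan tRNA gene n-TWcca6, was highest in Con 2, at 99.4, 1567 and 414 TPM in F1 Con and at 356, 185 and 336 TPM in F1 NHS. novel_mir6371, in an intron of Gm31314, was lowest in NHS 2, at 135, 353 and 290 TPM in F1 Con and at 236, 36.0 and 481 TPM in F1 NHS. As a share of all reads, predicted miRNAs were 0.435%, 0.891% and 0.423% in F1 Con and 0.717%, 0.945% and 0.446% in F1 NHS (exact permutation p = 0.5). Without NHS 2 the difference between the means was -0.0015 percentage points.

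Known miRNAs can be read in 1 F1 NHS library, NHS 2, so no test was made and the values below describe that library. They took 38.3% of its reads, against 13.3%, 17.3% and 32.6% in F1 Con, and 1187 known miRNAs had a read, against 1119, 1085 and 1132. Values are therefore given as shares of known miRNA reads unless TPM is stated. miR-451a, a product of red blood cell precursors, led all 4 libraries, with 12.6%, 8.52% and 10.4% in F1 Con and 15.4% in NHS 2. Of 243 known miRNAs with at least 100 TPM in any of the 4 libraries, 101 lay within the F1 Con range, 23 (9.47%) were more than 2-fold above it and 39 (16%) more than 2-fold below it. The median log2 ratio to the F1 Con mean was -0.49 by share of known miRNA reads and 0.47 by TPM.

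By share of known miRNA reads, the lists farthest below the F1 Con range were those of the miR-30 family, the miR-34 and miR-449 family and germ cells, and the germ cell list holds members of the family before it. The list of 9 germ cell miRNA names, all from the miR-34 and miR-449 family and the X-linked testis cluster, held 11.5%, 9.30% and 8.20% in F1 Con (9.68% ± 1.71, SD, n = 3) and 4.17% in NHS 2 (95% Wilson interval 4.16% to 4.18%, counting error only). The family of miR-34 and miR-449, known from spermatogenesis and from multiciliated cells, held 10.8%, 7.61% and 6.88% in F1 Con and 3.41% in NHS 2. Of its 8 members over 100 TPM, 3 were more than 2-fold below and 1 more than 2-fold above the F1 Con range, and its median log2 ratio was 0.01, so its lower share came from its leading members. The miR-30 family held 2.22%, 3.48% and 3.09% in F1 Con and 0.763% in NHS 2, with 4 of 10 members more than 2-fold below, 1 above and a median log2 ratio of -1.73. The order depends on the scale, a comparison chosen after seeing the data. As a share of all reads, the germ cell list held 1.54%, 1.60% and 2.67% in F1 Con and 1.60% in NHS 2, within the F1 Con range. On that scale the miR-34 and miR-449 family held 1.438%, 1.314% and 2.24% in F1 Con and 1.308% in NHS 2. The miR-30 family held 0.295%, 0.600% and 1.01% of all reads in F1 Con and 0.292% in NHS 2, so both families were at about the level of the lowest F1 Con library. Of the 17 lists, 6 were below and 1 above the F1 Con range by share of known miRNA reads, against 2 below and 7 above by share of all reads.

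The leading members of these families are miR-34b-3p and miR-34c-3p, which share the seed in capitals (bases 2 to 8 of the RefSeq mature sequence, GRCm38.p6), and miR-449a-5p, whose opposite arm moved the other way.
miR-34b-3p: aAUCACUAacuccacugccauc
miR-34c-3p: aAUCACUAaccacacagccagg
miR-449a-5p: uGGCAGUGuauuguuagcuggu
miR-449a-3p: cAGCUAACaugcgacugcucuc

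The share of miR-34b-3p was 6.93%, 4.03% and 2.66% in F1 Con and 1.31% in NHS 2, and that of miR-34c-3p was 2.80%, 2.98% and 2.10% in F1 Con and 1.01% in NHS 2. In TPM, miR-34b-3p stood at 9228, 6958 and 8677 in F1 Con and at 5003 in NHS 2, below the F1 Con range. miR-34c-3p stood at 3726.5, 5140 and 6829 TPM in F1 Con and at 3877 TPM in NHS 2, within it. miR-449a-5p stood at 712, 596 and 4659 TPM in F1 Con and at 55.8 TPM in NHS 2, a share 23.7-fold below the lowest F1 Con library. miR-449a-3p, cut from the same hairpin on chromosome 13, stood at 47.1, 18.1 and 117 TPM in F1 Con and at 1745 TPM in NHS 2, a share 12.7-fold above the highest F1 Con library. The use of arms varied in general: among hairpins with both arms measured, the share of the 5′ arm in NHS 2 was above the F1 Con range for 30, below it for 32 and within it for 60.

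Other miRNAs far from the F1 Con range are shown with their seeds in capitals, beside let-7a-5p and let-7c-5p, which were named for their abundance. By share, let-7a-5p was 2.01-fold above the highest F1 Con library. The share of let-7c-5p, at 5.67% in NHS 2, lay within the F1 Con range of 2.89% to 7.37%.
let-7j: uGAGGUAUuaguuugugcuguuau
let-7a-5p: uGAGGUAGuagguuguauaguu
let-7c-5p: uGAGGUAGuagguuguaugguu
miR-26a-2-3p: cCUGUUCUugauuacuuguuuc
miR-26b-5p: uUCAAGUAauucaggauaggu
miR-125b-5p: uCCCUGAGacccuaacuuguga
miR-532-3p: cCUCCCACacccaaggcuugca

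Above the range, let-7j stood at 3.36, 5.78 and 16.2 TPM in F1 Con and at 251 TPM in NHS 2. miR-26a-2-3p stood at 749, 273 and 1246 TPM in F1 Con and at 16781 TPM in NHS 2, where it was among the 10 most abundant. miR-125b-5p stood at 48.8, 101 and 27.5 TPM in F1 Con and at 1073 TPM in NHS 2. Their shares were 13.2-fold, 7.79-fold and 4.76-fold above the highest F1 Con library, and miR-5112, at 5.48-fold, lay between miR-26a-2-3p and miR-125b-5p. Below the range, miR-532-3p stood at 514, 437 and 1915 TPM in F1 Con and at 16.8 TPM in NHS 2, a share 57.8-fold below the lowest F1 Con library. miR-26b-5p stood at 457, 1194 and 2699 TPM in F1 Con and at 58.4 TPM in NHS 2, 22.5-fold below by share. The remaining 2 of the 5 farthest below were miR-486b-5p and miR-204-3p.

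The let-7 family as a whole, which marks differentiated cells, held 13.6%, 14.2% and 23.02% in F1 Con and 22.4% in NHS 2, within the F1 Con range. The 9 miRNAs with the common let-7 seed GAGGUAG held 7.79%, 8.37% and 15.2% in F1 Con and 14.2% in NHS 2. let-7a-5p itself varied among controls, with 91.9, 1661 and 6442 TPM, and stood at 15251 TPM in NHS 2. let-7c-5p stood at 5337, 4990 and 23996 TPM in F1 Con and at 21726 TPM in NHS 2.

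Markers of other cell types were checked in the same 4 libraries. The red blood cell list held 12.9%, 9.60% and 10.6% in F1 Con and 15.5% in NHS 2, above the range through miR-451a, while 2 of its 6 members over 100 TPM were more than 2-fold below and its median log2 ratio was -2.65. The lists of epithelium and epididymis, smooth muscle and stroma, leukocytes, endothelium, skeletal and cardiac muscle, and liver lay within the F1 Con range. Epithelial miRNAs, led by miR-429-3p and miR-200c-3p, held 4.07%, 3.32% and 6.51% in F1 Con and 3.82% in NHS 2. Smooth muscle miRNAs, led by miR-143-3p, held 8.53%, 5.13% and 5.21% in F1 Con and 8.40% in NHS 2. No marker list was at 0 in any of the 4 libraries, and the part of these lists in the results was not tested.

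Of the remaining lists, the miR-29 family held 0.661%, 0.424% and 0.512% in F1 Con and 0.386% in NHS 2, while its median log2 ratio was 0.65. The X-linked testis cluster, whose miRNAs are made in male germ cells, held 4.18%, 5.21% and 5.58% in F1 Con and 3.94% in NHS 2, with a median log2 ratio of 0.01. A list of miRNAs studied in sperm of stressed males held 1.98%, 1.21% and 2.16% in F1 Con and 1.14% in NHS 2, with 4 of 14 members more than 2-fold below and 2 above. The miR-17-92 cluster with its paralogs, the miRNAs of the Hox clusters and the families of miR-99, miR-100 and miR-125 lay within the F1 Con range. Medians of the lists stand beside -0.49 over all 243.

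**Figure D5:**
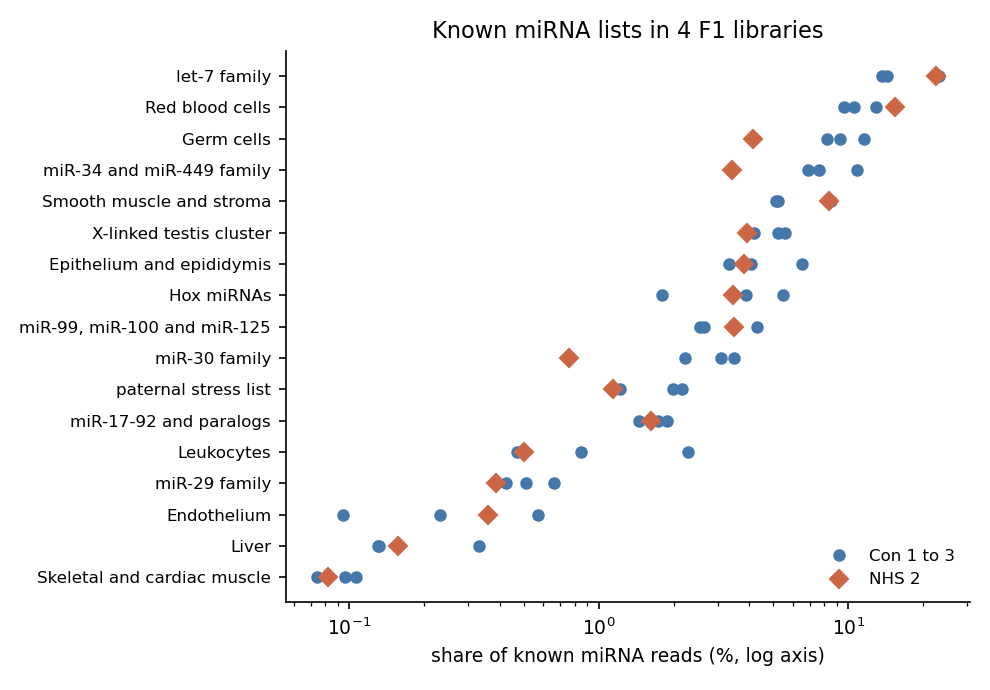
Share of known miRNA reads in percent on a log axis (horizontal) held by each list of miRNAs (vertical), with circles for the 3 F1 Con libraries and a diamond for NHS 2. NHS 2 lies farthest left of the circles for the germ cell list, the miR-34 and miR-449 family and the miR-30 family.

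The last comparison asked whether the difference in F1 was that of the exposed F0 males or of F2. The number of predicted piRNAs of 18 bases or more at equal library totals was higher in NHS than in Con in F1 and lower in F0: NHS minus Con was 0.72 in F1 and -0.30 in F0 on the log2 scale, a difference of 1.02 (exact permutation within generations, adjusted p = 0.045 over 18 tests). Without scaling to equal totals the difference was 0.96 (exact permutation, adjusted p = 0.060), and at equal predicted piRNA reads it was 0.93 (exact permutation, adjusted p = 0.09), so neither passed the threshold. The L1 share of listed sequences was 2.65 percentage points higher in F1 NHS than in F1 Con and 2.59 percentage points lower in F0 NHS than in F0 Con, a difference of 5.24 (exact permutation, adjusted p = 0.045). Its means were 32.6% in F0 Con and 28.5% in F1 Con, and 30.1% in F0 NHS and 31.2% in F1 NHS. In F2 the L1 share was 1.80 percentage points higher in NHS than in Con. The difference of 0.85 between the F1 and F2 effects did not pass (exact permutation, adjusted p = 0.757). The number of predicted piRNAs of 18 bases or more in F2 was 25931 in F2 Con and 54799 in F2 NHS on average, higher in NHS as in F1. For this number too the difference between the F1 and F2 effects did not pass (exact permutation, adjusted p = 0.757).

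Among single hairpins, edgeR called 4 of 299 (1.34%) for a difference between the F1 and F0 effects and 1 (0.334%) between F1 and F2. The first count was 0 without any one of the F1 Con libraries, and the second was 0 without Con 2, NHS 2 or NHS 3. DESeq2 called 11 (3.68%) and 6 (2.01%). For predicted piRNAs edgeR called 0 of 937 in both (0% and 0%), with 59 (6.30%) and 90 (9.61%) at an unadjusted p under 0.05, and DESeq2 called 16 (1.71%) and 14 (1.49%). The leading hairpin was novel_mir6, opposite an intron of Jarid2, the gene of a Polycomb cofactor. It stood at 17.04, 28.4 and 27.2 TPM in F1 Con and at 135, 26.6 and 141.96 TPM in F1 NHS, while F0 Con stood at 117, 724 and 113 TPM and F0 NHS at 15.3, 18.2 and 13.99 TPM. Thus it was lower in all F0 NHS libraries, and in F1 higher in NHS 1 and NHS 3 but not in NHS 2 (difference 7.09, SE 1.37, log2, adjusted p 0.0164 in edgeR).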

How the data were processed

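Small RNA libraries of mouse sperm were sequenced. The deposited table lists, for each library, names of known and predicted small RNAs with a read count and a value headed TPM. Count over TPM was constant within each library, so the deposited TPM is RPM, the per-million share of the library's reads without length scaling, and it gave the library totals. The submitters' processing notes name mm10. For the aligner, the predictors and the filters, no name is given in the sources used here. Hairpin positions count their starts from 0 in the deposited files: 402 of 402 precursors on transcripts of 1 exon matched that way and 0 with starts from 1, and they are printed from 1.

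The deposited counts were tested with edgeR 4.0.16 in R 4.3.3 (quasi-likelihood F test, TMM, 1 mean for each of the 6 groups of 18 libraries, at least 1 CPM in at least 3 libraries, Benjamini-Hochberg within each class, threshold 0.05), with DESeq2 1.42.0 as alternative. The fit was tested on simulated data. Single values per library were compared by two-sided exact permutation tests (scipy 1.17.1). A count of 0 was given a floor of 3 reads per library. Only counting error is covered by intervals and floors, as the files hold no molecular identifiers. Named entries were those called by either tool, the 10 with the smallest edgeR p and the 5 most abundant of each class. For known miRNAs they were the 10 most abundant in NHS 2, the 5 farthest above and below the F1 Con range, and the 2 leading members of each list. Members, lists and rules were chosen with earlier results of these data known. Joining entries by a shared run of 14 bases, the pairs of 5′ and 3′ ends and the count of sequences of 18 bases or more were chosen after seeing the data. Repeat families are those of the deposited annotation. Mature miRNA sequences came from RefSeq (37 of 46 named miRNAs matched).

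Same-numbered libraries did not deviate together (correlation of deviations -0.18, -0.32 and -0.18 for predicted miRNAs, -0.10, -0.02 and -0.01 for predicted piRNAs), so the numbers were not taken to pair them. Alternatives were other scalings, filters and fits, and leaving out each library. One hairpin called between generations is not reported here.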

Additional observations from a re-analysis of the deposited data

Results flagged for a closer look

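Of the hairpins whose NHS effect differed between generations in edgeR, novel_mir6 (difference between F1 and F0 of 7.09 on the log2 scale) lost its call in 4 of 10 alternatives. novel_mir5550, in the small Cajal body RNA gene Gm26083 within Snhg20, had a difference of 7.18 (adjusted p 0.0392 in edgeR) and lost its call in 5 of 10. It stood at 23.8, 1.89 and 33.8 TPM in F0 Con, 0.32, 0.24 and 0.95 TPM in F0 NHS, 0.31, 0.59 and 0.04 TPM in F1 Con and 0.52, 1.14 and 1.19 TPM in F1 NHS, so most of the difference lay in F0. novel_mir4375, opposite an exon of Kmt5c, had a difference of 10.92 (adjusted p 0.0476 in edgeR), but its only reads in F1 were 0.35 TPM in NHS 1, and it lost its call in 8 of 10. The intergenic novel_mir4847 had a difference of 4.05 (adjusted p 0.0434 in edgeR) and lost its call in 9 of 10. It stood at 0.78, 0.98 and 0.86 TPM in F1 Con and at 4.59, 1.10 and 2.82 TPM in F1 NHS.

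The number of predicted piRNAs at equal library totals differed between the F1 and F0 effects by 1.02 on the log2 scale, and the L1 share of listed sequences by 5.24 percentage points, both past the test. The first did not pass without scaling to equal totals (0.96, adjusted p 0.060 by exact permutation) or at equal predicted piRNA reads (0.93, adjusted p 0.09 by exact permutation). The second rests on a difference in F1 of 2.65 percentage points, which was 1.69 without NHS 3. The F1 Con shares in that difference were the lowest of the series. The 33628 predicted piRNAs under 18 bases in NHS 1 took 44.0% of its predicted piRNA reads. The cause was not tested.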

How the results depend on the processing

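No call in F1 NHS against F1 Con was made by edgeR with other scaling, a filter at 10 reads, the F1 libraries alone, a term for the libraries high in novel_mir1, the replicate block (0 predicted miRNAs and 0 predicted piRNAs) or after leaving out any F1 library (0 to 0). DESeq2 called 3 predicted miRNAs, 11 predicted piRNAs and 1 group of piRNAs, and edgeR with no filter called 45 and 17. For F1 minus F0, 4 hairpins were called, 11 with DESeq2, 18 with no filter, 2 with library totals alone, 0 with the replicate block and 0 to 3 without 1 library. For F1 minus F2, 1 was called, 6 with DESeq2, 26 with no filter, 0 with library totals alone, 0 with the replicate block and 0 to 1 without 1 library. Predicted piRNAs had 0 calls in both, 16 and 14 with DESeq2, and 9 and 13 with no filter. The cause was not tested.

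The number of predicted piRNAs (ratio 1.71) was 0.962 for 2 or more reads and 1.56 to 1.79 without 1 library. The predicted miRNA share (difference 0.120 percentage points) ran from -0.0015 without NHS 2 to 0.274. Known miRNAs over 2-fold above the F1 Con range (23) were 12 with both arms summed, 55 by TPM and 32 to 36 without 1 F1 Con library, and those below (39) were 24 by TPM and 69 at 10 TPM or more. Directions held in 546 of 549 settings of named entries. novel_mir6371 gave 0.25 with no filter, novel_pir83653 ran from -0.17 without NHS 2 to 5.75, and novel_pir249668 from -0.44 without NHS 2 to 2.68. With 3 libraries a group, the exact test of F1 NHS against F1 Con cannot pass 0.05.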
